A study of Homo sapiens with 12 samples.

Results

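The CDK inhibitors are the 7 genes of the CIP/KIP family (CDKN1A, CDKN1B and CDKN1C, which encode p21, p27 and p57) and the INK4 family (CDKN2A, CDKN2B, CDKN2C and CDKN2D, which encode p16 with p14ARF, p15, p18 and p19). They were taken as the entries of the count table whose gene symbol is one of these names, which gave 7 of 55773 entries. Of the 7, 4 had enough reads to be tested among 15691 tested genes: CDKN1A, CDKN1B, CDKN2C and CDKN2D. The counts come from poly(A) RNA of RBE, 1 established human cholangiocarcinoma (bile duct cancer) cell line, in 12 libraries. All cells were kept for 22 days in 5 µM AG-120, which inhibits mutant IDH1 and so blocks the making of 2-hydroxyglutarate (2-HG), or in DMSO as vehicle. They were then given DMSO without Nutlin, as the sample titles name it, or 5 µM Nutlin for 72 hours. Nutlin activates p53 by inhibiting MDM2. The 4 groups of 3 libraries are called vehicle, vehicle_Nutlin, AG120 and AG120_Nutlin. The labels do not say whether the libraries of a group are separate cultures, so p-values measure the spread between these samples, which may be technical.

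Cyclin-dependent kinases drive the cell cycle when bound to a cyclin. CIP/KIP proteins bind whole cyclin and kinase complexes, above all those of CDK2, whereas INK4 proteins bind CDK4 and CDK6 and keep cyclin D from joining them. Both act to keep the RB proteins unphosphorylated, and RB then holds back the E2F factors that switch on S phase genes. CDKN1A is a textbook target of p53, and CDKN2A is a tumour suppressor gene that is often lost or silenced in bile duct cancer.

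The starts of the tested members are shown to let the upstream sequence be read beside levels that moved in opposite directions. RefSeq windows (GRCh38.p14) of the 250 bases before each annotated start were matched for 6 of the 7 members, in 9 windows, and CDKN1C had no entry. Each sequence runs 5′ to 3′ on the gene's strand, with the GC box, GGGCGG on either strand and with overlapping matches kept, in capitals. CDKN2C has 3 windows, and the one with the most GC boxes is shown. The windows lie at chr6:36678464-36678713 (plus strand) for CDKN1A, chr12:12717118-12717367 (plus strand) for CDKN1B, chr1:50968456-50968705 (plus strand) for CDKN2C and chr19:10568980-10569229 (minus strand) for CDKN2D.
CDKN1A: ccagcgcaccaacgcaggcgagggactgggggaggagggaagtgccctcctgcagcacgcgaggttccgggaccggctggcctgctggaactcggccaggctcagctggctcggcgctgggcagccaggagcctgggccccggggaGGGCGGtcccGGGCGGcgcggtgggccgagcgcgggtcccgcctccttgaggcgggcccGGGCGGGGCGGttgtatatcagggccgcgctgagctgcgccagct
CDKN1B: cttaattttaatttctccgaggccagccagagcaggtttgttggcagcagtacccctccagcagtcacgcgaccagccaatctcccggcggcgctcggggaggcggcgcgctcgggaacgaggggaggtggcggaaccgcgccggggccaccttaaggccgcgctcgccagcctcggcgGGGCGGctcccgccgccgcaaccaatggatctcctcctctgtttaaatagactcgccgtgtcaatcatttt
CDKN2C: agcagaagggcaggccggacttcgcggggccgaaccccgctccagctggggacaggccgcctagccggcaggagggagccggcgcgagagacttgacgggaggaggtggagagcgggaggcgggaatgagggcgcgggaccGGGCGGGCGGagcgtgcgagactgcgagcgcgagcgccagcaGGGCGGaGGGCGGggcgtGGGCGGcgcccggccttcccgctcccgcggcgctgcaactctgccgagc
CDKN2D: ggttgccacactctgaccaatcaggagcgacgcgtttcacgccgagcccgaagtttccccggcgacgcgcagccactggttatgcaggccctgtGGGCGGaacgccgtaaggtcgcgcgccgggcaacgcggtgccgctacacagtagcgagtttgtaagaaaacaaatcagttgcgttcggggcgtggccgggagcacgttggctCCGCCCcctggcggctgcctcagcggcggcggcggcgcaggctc
The CDKN1A window held 4 GC boxes, CDKN1B 1, the CDKN2C window 5 and CDKN2D 2. Of the 9 member windows, 7 held at least 1, and 42.6% of all 35116 windows of this length did. CCAAT on either strand was present in 32% of all windows and was found 2 times upstream of CDKN1B and 1 time each in the CDKN2D window and in a CDKN2C window that is not shown. No member window held the CHR letters TTTGAA (13.3% of all windows), the E2F letters TTTCCCGC, TTTCGCGC, TTTGCCGC or TTTGGCGC (2.79%) or the decamer of the p53 consensus (5.57%). These matches describe letters only. The known p53 response elements of CDKN1A lie further upstream than this window.

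Library totals ran from 16840161 to 27499433 counts. The biliary markers KRT7, KRT19, SOX9, EPCAM and SPP1 summed to between 2957 and 4827 CPM (read counts scaled to library size, by the trimmed mean of M values, TMM) in every library, against at most 8.27 CPM for 5 hepatocyte markers. MDM2, the gene whose product Nutlin blocks and itself a p53 target, rose from 146 ± 6.96 CPM in vehicle to 2845 ± 694 in vehicle_Nutlin and from 163 ± 26.4 in AG120 to 3340 ± 16.0 in AG120_Nutlin (mean ± SD, n = 3). Earlier results of these data set 3 libraries apart: vehicle_Nutlin replicates 2 and 3 and AG120 replicate 1. RN7SK, an RNA made without a poly(A) tail, stood at 163 CPM in vehicle_Nutlin replicate 2 and 67.9 CPM in AG120 replicate 1. It was at 1.15 CPM in vehicle_Nutlin replicate 3, 27.7 in AG120_Nutlin replicate 3, 19.4 in AG120 replicate 2 and at most 3.99 elsewhere. The part of this difference in the member results was not tested. The share of genes over 2-fold from the rest of the group was 7.58% to 15.0% in the vehicle_Nutlin libraries and 1.77% to 4.64% in all others, AG120 replicate 1 being the highest of these. By this share vehicle_Nutlin replicate 1 (7.58%) also lay far from its group, and by chi-square of the counts replicates 1 and 2 were the closest pair of that group, so replicate 1 is not shown to be the typical library. It held the lowest level of each of the 4 tested members in its group, and values without the 3 libraries rest on it alone for vehicle_Nutlin. Those values are given beside the full ones where a call or a sign changed or a log2 value moved by over 1.5 times.

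CDKN1A rose more than 20-fold with Nutlin in cells of either pretreatment and made up nearly all CIP/KIP reads afterwards. CDKN2C fell about 3-fold, CDKN2D fell in vehicle cells, and CDKN1B was not called in any comparison. CDKN1C was near the limit of detection, and CDKN2A and CDKN2B held no read in any library. The threshold for a call was 0.05 for the p of edgeR's quasi-likelihood test after Benjamini-Hochberg adjustment over all 15691 genes. In vehicle cells Nutlin raised 1 member and lowered 2 of the 4 tested, where 53.9% of all tested genes were called (26.8% higher and 27.1% lower). In AG-120 cells it raised 1 and lowered 1, where 55.7% of all genes were called (27% higher and 28.8% lower). With over 50% of the transcriptome called, being called does not set a member apart, and the sizes below carry the description.

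**Figure D1:**
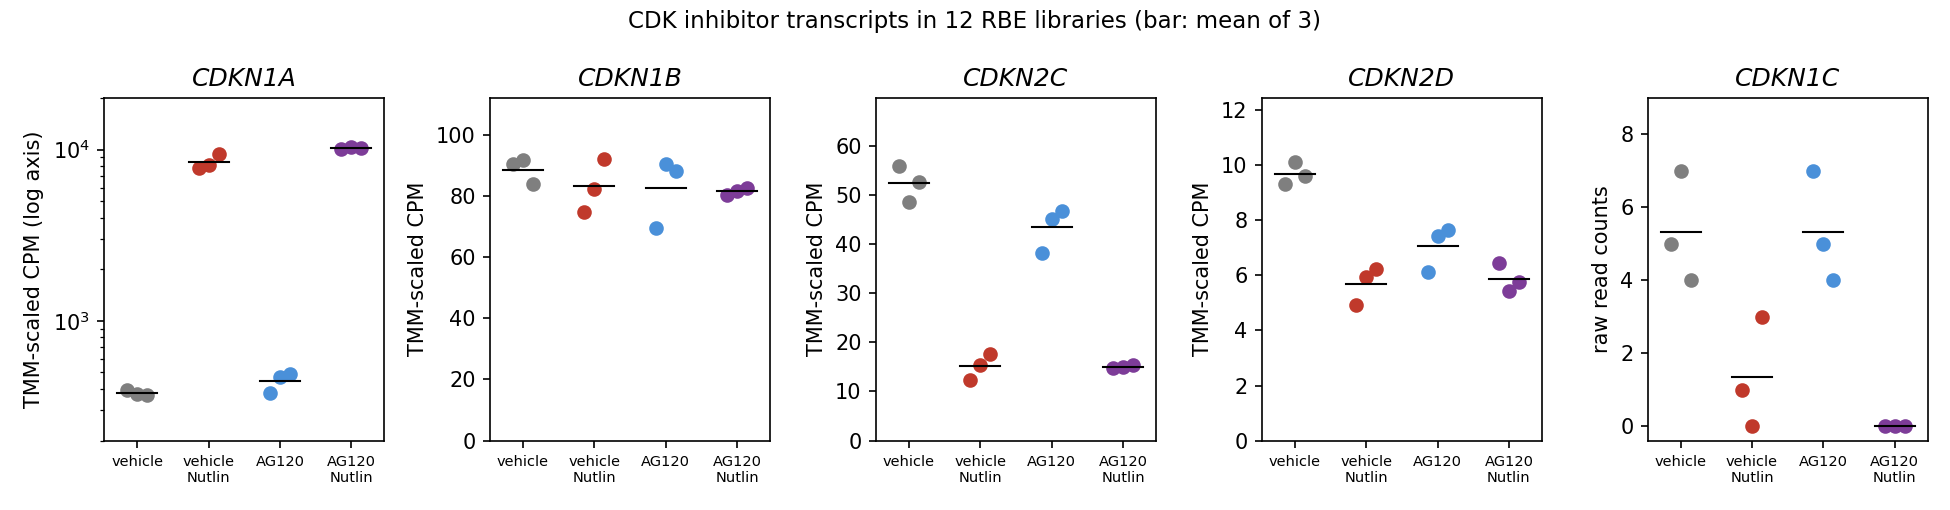
Levels of 5 CDK inhibitor genes in each of the 12 libraries, as TMM-scaled CPM on the y axis for the 4 tested members (log axis for CDKN1A) and as raw read counts for CDKN1C, with the 4 groups on the x axis, 1 point per library and a bar at the mean of 3. CDKN1A sits at 7833 CPM or more in all Nutlin libraries and at 489 or less in all others, whereas the CDKN1B groups overlap.

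CDKN1A (hg19 chromosome 6, 36644305 to 36655116, a protein-coding gene) encodes p21, which binds and inhibits cyclin and CDK2 complexes and also the replication clamp PCNA. In vehicle it stood at 394, 373 and 371 CPM in replicates 1 to 3. In vehicle_Nutlin the same values were 7833, 8085 and 9392 CPM. AG120 libraries held 380, 468 and 489 CPM. AG120_Nutlin libraries held 10065, 10396 and 10193 CPM. Every Nutlin library lay far above every library without it, and the AG120 libraries overlapped with vehicle through replicate 1, one of the libraries set apart.

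The Nutlin response of CDKN1A was a log2 fold change of 4.47 (SE 0.137) in vehicle cells, a 22.2-fold rise with an adjusted p of 5.397e-11 in edgeR's quasi-likelihood test. In AG-120 cells it was 4.52 (SE 0.137), a 22.9-fold rise with an adjusted p of 4.796e-11 in the same edgeR test. CDKN1A ranked 201 from the top of 15691 genes by log2 fold change in vehicle cells and 203 in AG-120 cells, near the 98.7 percentile in each. The difference between both responses was 0.04 on the log2 scale, with a 95% interval of -0.32 to 0.41 and an adjusted p of 0.9382 in edgeR. CDKN1A alone took 0.0394% of all library counts in vehicle and 0.824% in vehicle_Nutlin, and 0.0449% in AG120 and 1.00% in AG120_Nutlin.

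The effect of AG-120 on CDKN1A was small beside that of Nutlin, and whether it was called turned on the 3 libraries set apart. Without Nutlin the log2 fold change of AG120 over vehicle was 0.23 (95% interval -0.03 to 0.49, adjusted p of 0.662 in edgeR). With Nutlin it was 0.28 (95% interval 0.02 to 0.53, adjusted p of 0.2244 in edgeR), and the lowest AG120_Nutlin library lay above the highest vehicle_Nutlin library. Groups did not overlap for 28.3% of all genes in that comparison. With the 3 libraries left out, which leaves 1 vehicle_Nutlin library that is assumed to vary like the others, CDKN1A was called higher in both: 0.34 without Nutlin (adjusted p of 0.0001197 in edgeR) and 0.39 with Nutlin (adjusted p of 0.0001647 in edgeR). Over all 20 alternative settings the adjusted p of edgeR or DESeq2 ranged from 0.0001197 to 1 without Nutlin and from 0.0001647 to 0.4597 with it, and only the setting without the 3 libraries gave a call. The direction was upward in all 20 for each comparison.

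CDKN1B (hg19 chromosome 12, 12867992 to 12875305) encodes p27, which restrains cyclin E and CDK2 and is controlled largely by protein breakdown. Vehicle libraries held 90.3, 91.7 and 83.9 CPM. In vehicle_Nutlin the values were 74.9, 82.3 and 92.3 CPM. In AG120 they were 69.6, 90.6 and 88.0 CPM, and in AG120_Nutlin 80.2, 81.5 and 82.7 CPM. The groups overlapped in all 4 pairwise comparisons, and the lowest value of the 12 was AG120 replicate 1.

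The Nutlin log2 fold change of CDKN1B was -0.09 in vehicle cells (95% interval -0.33 to 0.15, adjusted p of 0.5129 in edgeR). In AG-120 cells the value was -0.02 (95% interval -0.26 to 0.22, adjusted p of 0.8826 in edgeR). With the 3 libraries set apart left out, CDKN1B was called lower, by -0.26 in vehicle cells (adjusted p of 0.002365 in edgeR, 0.002365 to 0.9401 over all alternatives) and by -0.14 in AG-120 cells (adjusted p of 0.02114 in edgeR, 0.02114 to 0.9617 over all alternatives). For AG-120 the values were -0.10 without Nutlin and -0.03 with Nutlin, with adjusted p-values of 0.868 and 0.9016 in edgeR. Without the 3 libraries both turned sign, to 0.01 and 0.13, and neither was called. The difference between the Nutlin responses of CDKN1B was 0.07 (95% interval -0.27 to 0.41, adjusted p of 0.8848 in edgeR), and 0.12 without the 3 libraries.

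Because CDKN1A rose while CDKN1B did not, the make-up of the CIP/KIP transcripts shifted. CDKN1A held 81.0 ± 0.707% of CIP/KIP counts in vehicle and 99.0 ± 0.0297% in vehicle_Nutlin (mean ± SD, n = 3). In AG120 the share was 84.3 ± 0.491%, and in AG120_Nutlin 99.2 ± 0.0134%. A single library's exact 95% binomial interval was narrow, for instance 80.5% to 82.1% in vehicle replicate 1. The count ratio of CDKN1A to CDKN1B, which cancels library scaling, ran from 4.07 to 4.42 in vehicle and from 5.17 to 5.55 in AG120. With Nutlin it ran from 98.3 to 104.6 in vehicle cells and from 123.2 to 127.5 in AG-120 cells. AG-120 libraries lay above vehicle libraries in both settings, by 1.26-fold and 1.23-fold in the means, and AG120 replicate 1, one of the libraries set apart, lay above all vehicle libraries here at 5.46. The two-sided exact permutation p was 0.1 for each, the smallest that 3 against 3 can give, and this ratio and the 3 per-kilobase ratios reported with it were picked after the values were seen.

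**Figure D2:**
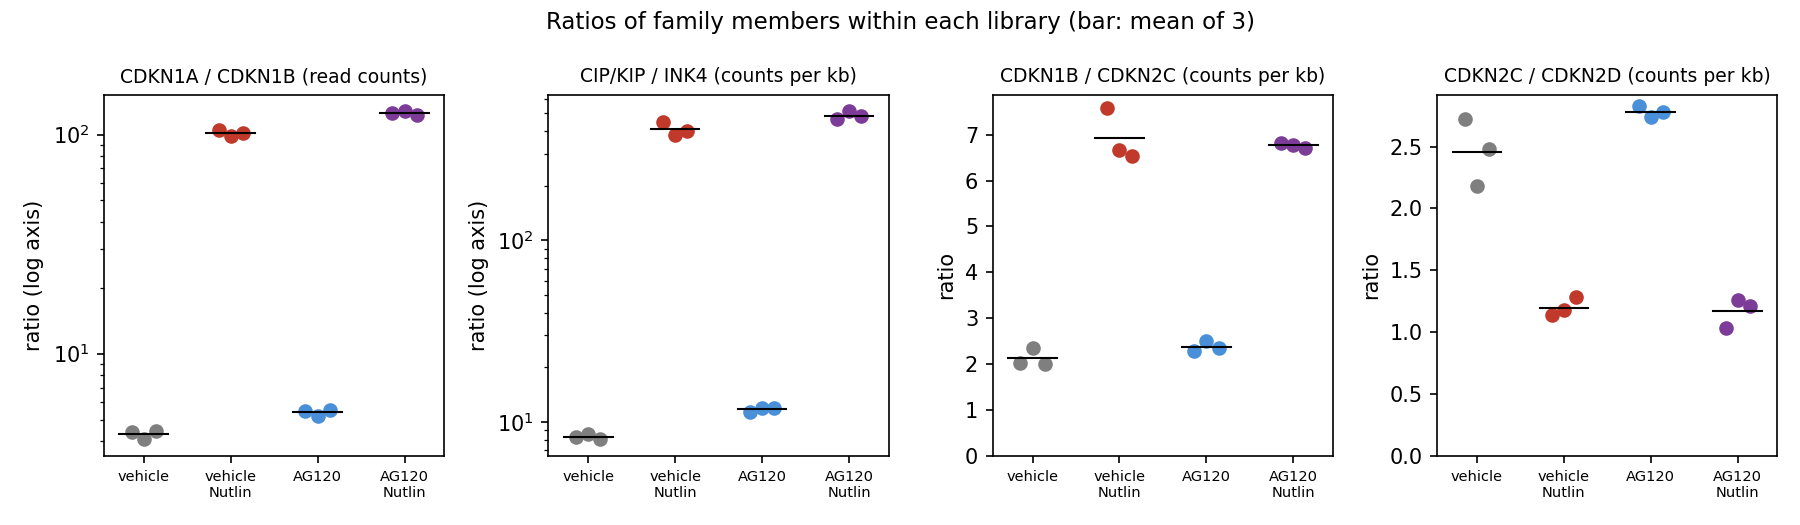
Ratios between family members within each library: CDKN1A to CDKN1B by read counts, and CIP/KIP to INK4, CDKN1B to CDKN2C and CDKN2C to CDKN2D by counts per kilobase of exon (y axis, log axis in the first pair of panels). Points are libraries, bars are means of 3, and in the CDKN1A to CDKN1B panel the AG120 libraries lie above vehicle (5.17 to 5.55 against 4.07 to 4.42).

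CDKN1C (hg19 chromosome 11, 2904443 to 2907111) encodes p57, an imprinted inhibitor best known from development. It held 36 reads over all 12 libraries and at most 7 in any library, too few to be tested. The counts were 5, 7 and 4 in vehicle, 1, 0 and 3 in vehicle_Nutlin, 7, 5 and 4 in AG120, and 0, 0 and 0 in AG120_Nutlin. Libraries with Nutlin thus held fewer reads than libraries without it. Relative to library size the vehicle level was 3.54 times that of vehicle_Nutlin, with a 95% counting interval of 1.14 to 14.5. Against a limit of 3 counts over the AG120_Nutlin group, the AG120 level from 16 reads was 4.58 times that limit. With no filter on low counts, which tests 29603 genes, edgeR's quasi-likelihood test gave adjusted p-values of 0.2563 for Nutlin in vehicle cells and 0.009791 for Nutlin in AG-120 cells. That fit gave far smaller p-values for strong changes than the filtered fit. For CDKN1A in AG-120 cells the unadjusted edgeR p was 1.473e-73 against 1.284e-13. Its p-values are thus not comparable with the others given here. The counting interval and the limit of 3 counts cover counting error only. The value of 4.58 leaves out the counting error of the AG120 reads, so it is not a lower bound.

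CDKN2C (hg19 chromosome 1, 51426417 to 51440305) encodes p18, an INK4 protein that binds CDK6 and CDK4. It was the most abundant INK4 transcript. Vehicle libraries held 56.0, 48.7 and 52.7 CPM, and vehicle_Nutlin libraries 12.3, 15.4 and 17.6 CPM. AG120 libraries held 38.2, 45.1 and 46.8 CPM, and AG120_Nutlin libraries 14.7, 15.0 and 15.4 CPM. All libraries with Nutlin lay below all without it, and the 3 AG120_Nutlin libraries lay within the range of vehicle_Nutlin.

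Nutlin lowered CDKN2C by 3.46-fold in vehicle cells, a log2 fold change of -1.79 (SE 0.132) with an adjusted p of 1.401e-07 in edgeR's quasi-likelihood test. In AG-120 cells it fell 2.88-fold, a log2 fold change of -1.53 (SE 0.132) with an adjusted p of 5.52e-07 in edgeR. These drops placed CDKN2C in the lowest 6.74% and 9.88% of all genes. The difference between the responses was 0.26 (95% interval -0.13 to 0.66, adjusted p of 0.615 in edgeR). With the 3 libraries left out it was 0.49 (adjusted p of 0.05499 in edgeR, 0.05499 to 0.8116 over all alternatives), and without vehicle_Nutlin replicate 1 alone it was 0.14. Before Nutlin the AG120 libraries all lay below the vehicle libraries, at -0.27 on the log2 scale (95% interval -0.55 to -2.1e-05), with an adjusted p of 0.6246 in edgeR. With Nutlin the AG-120 effect was -0.01 (95% interval -0.30 to 0.28, adjusted p of 0.9755 in edgeR), and it turned to 0.30 without the 3 libraries, again not called (adjusted p of 0.1419 in edgeR, 0.1419 to 1 over all alternatives).

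CDKN2D (hg19 chromosome 19, 10677138 to 10679735) encodes p19, the other INK4 protein with reads. The values were 9.32, 10.1 and 9.62 CPM in vehicle and 4.92, 5.93 and 6.24 CPM in vehicle_Nutlin. They were 6.12, 7.45 and 7.64 CPM in AG120 and 6.44, 5.42 and 5.76 CPM in AG120_Nutlin. Vehicle stood above all 9 other libraries, whereas AG120 and AG120_Nutlin overlapped through AG120 replicate 1. At 93 to 280 counts per library, this was the most shallowly measured of the tested members.

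In vehicle cells Nutlin lowered CDKN2D by 1.70-fold, a log2 fold change of -0.76 (SE 0.147) with an adjusted p of 0.0007256 in edgeR's quasi-likelihood test. In AG-120 cells the log2 fold change was -0.27 (SE 0.149, adjusted p of 0.1467 in edgeR), and with the 3 libraries left out it was -0.37 and called (adjusted p of 0.02366 in edgeR, 0.02366 to 0.3717 over all alternatives). The difference between the responses was 0.50 (95% interval 0.04 to 0.95), with an adjusted p of 0.4071 in edgeR, so a weaker response in AG-120 cells was not shown. AG-120 without Nutlin gave -0.45 (95% interval -0.77 to -0.14, adjusted p of 0.3959 in edgeR). With Nutlin it gave 0.04 (95% interval -0.29 to 0.37, adjusted p of 0.8954 in edgeR), and 0.26 without the 3 libraries, again not called.

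Across AG-120 comparisons no member was called in edgeR's quasi-likelihood test. Without Nutlin 0.051% of all genes were called, and groups did not overlap for 21.8% of all genes and for 2 of the 4 members (CDKN2C and CDKN2D, both lower). With Nutlin 2.36% were called, and groups did not overlap for 28.3% of all genes and for 1 of the 4 members (CDKN1A, higher). For the difference between the Nutlin responses 0.363% were called. At an unadjusted edgeR p under 0.05 the members numbered 2, 1 and 1 in these comparisons. The share of all genes at that p was not counted, so these numbers do not set the members apart. DESeq2 called 0 members in each, where it called 95, 850 and 203 of all 15691 genes. For the Nutlin comparisons, groups did not overlap for 3 of 4 members in vehicle cells (59.3% of all genes) and for 2 of 4 in AG-120 cells (70.2% of all genes).

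**Figure D3:**
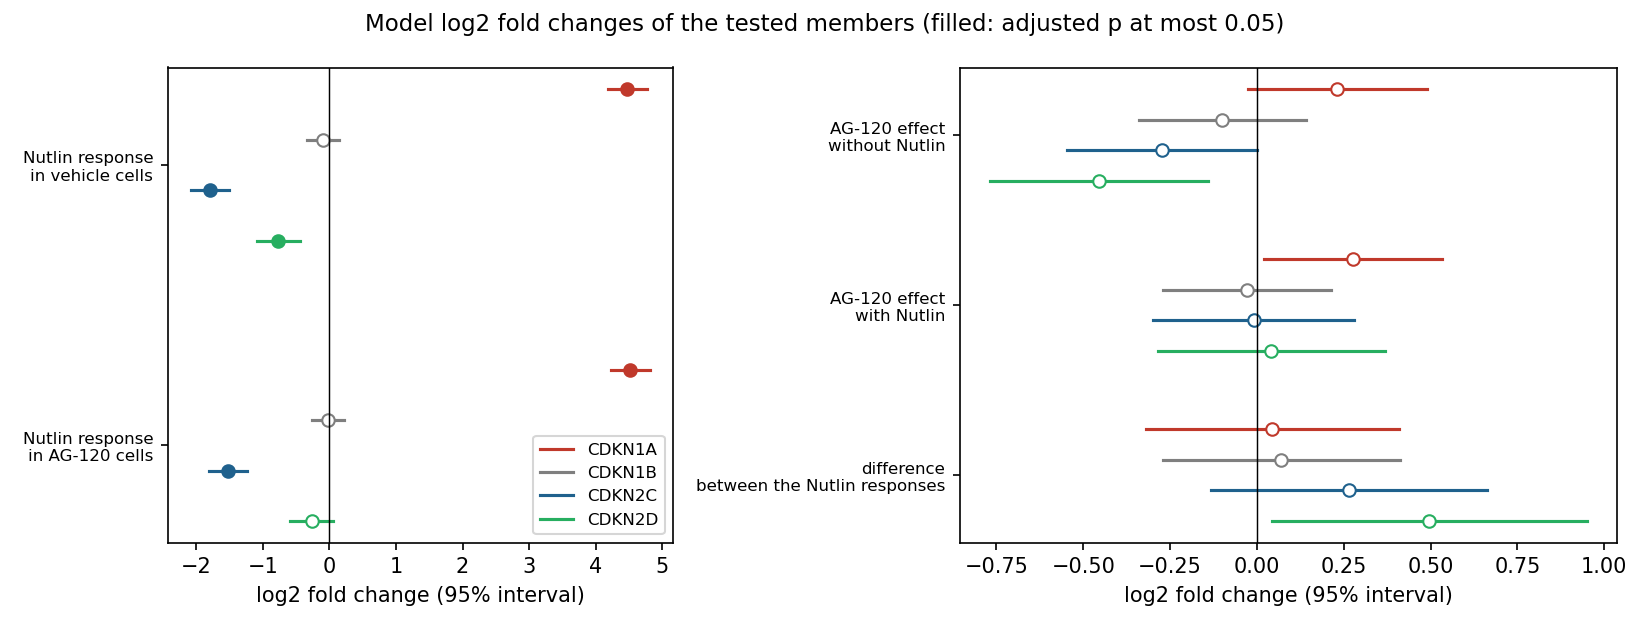
Log2 fold changes of the 4 tested members with 95% intervals (x axis), for the Nutlin responses on the left and the AG-120 effects and the difference between responses on the right, on separate scales, with filled points at an adjusted p of at most 0.05. CDKN1A is at 4.47 and 4.52 in the Nutlin responses, CDKN2C at -1.79 and -1.53, and no point on the right is filled.

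CDKN2A (hg19 chromosome 9, 21967751 to 21995300) encodes p16 and, in another reading frame, p14ARF, which restrains MDM2. CDKN2B (chromosome 9, 22002902 to 22009362) encodes p15 beside it. Both held 0 reads in each of 12 libraries, among 242115791 counts in all. That allows up to 0.0124 CPM over all libraries and 0.103 to 0.181 CPM in a single library (3 counts, counting error only). No group, with or without AG-120 or Nutlin, held a counted read of either gene. Reads lost in counting would not show in these limits. Neighbouring entries were at 0 as well. An unbroken run of 12 entries, from RN7SL151P (start 21699313) to CDKN2B, held no read, and it included C9orf53, the antisense RNA CDKN2B-AS1 and MTAP, a broadly expressed enzyme of methionine salvage. On the lower side the run ended at the pseudogene KHSRPP1, with 1174 reads over the 12 libraries, and on the upper side at the pseudogene UBA52P6, with 1 read.

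Among protein-coding entries, all 14 between KLHL9 and TUSC1 were at 0, which takes in interferon genes, MTAP, CDKN2A, CDKN2B, DMRTA1, ELAVL2 and IZUMO3. KLHL9 stood at 31.2 to 43.1 CPM and TUSC1 at 12.1 to 30.0 CPM in the group means. On chromosome 9, 44.9% of 2248 entries and 15.8% of 802 protein-coding entries held no read, and 7 runs of zeros there were at least this long, so the length of the run alone does not set it apart. Counting rules limit this reading: another protein-coding entry of the table spans MTAP, CDKN2A and CDKN2B, and reads that fall in exons of more than 1 gene can be dropped. In GENCODE 29, CDKN2A shares 7.88% of its exon bases with other genes and CDKN2B 0%. MTAP shares 9.58%. Among protein-coding genes that share some but under 50% of their exon bases, as CDKN2A and MTAP do, 6.45% of 7298 were at 0, and among those that share none, as CDKN2B, 20.6% of 10448. At 95% or more, a class that by GENCODE 29 holds none of these 3 genes, 76.6% of 141 were at 0. The name of the spanning entry is not among the genes behind these shares, which come from another annotation than the read counts. They therefore do not tell how many reads were lost to that entry. No DNA was measured, so a lost locus, a silent locus and a loss of reads in counting cannot be told apart.

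**Figure D4:**
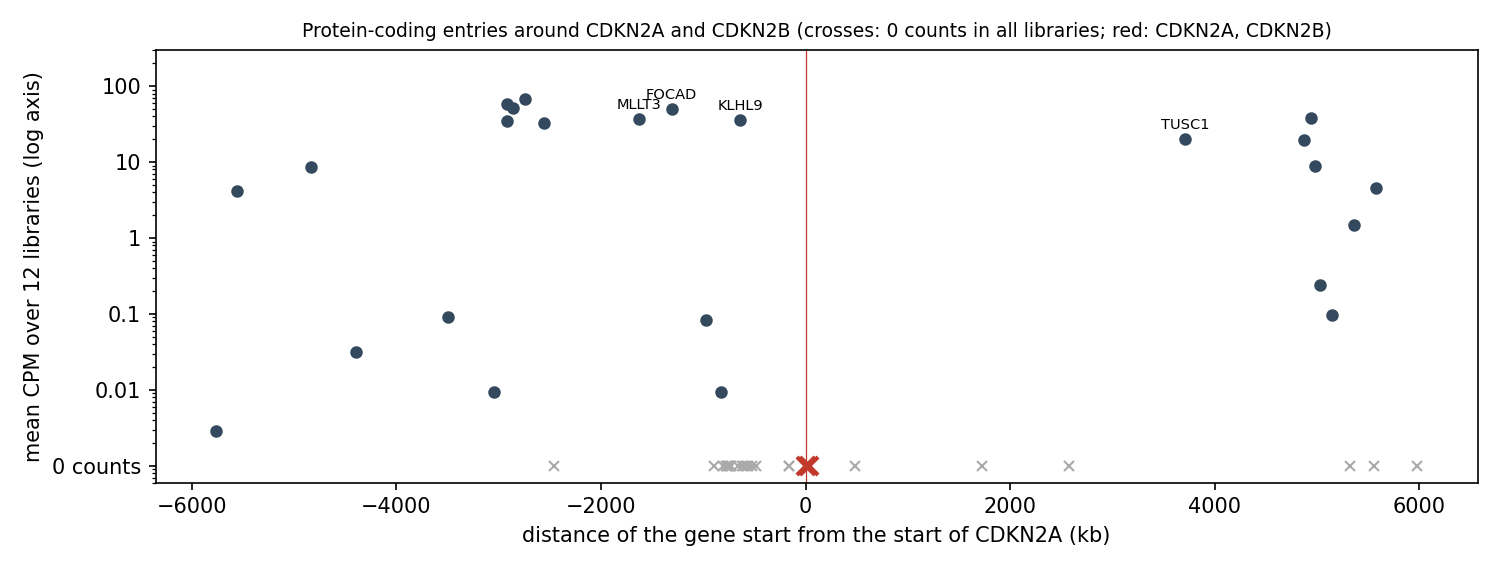
Mean CPM over the 12 libraries (y axis, log axis with a separate level for 0 counts) of protein-coding entries by distance from the start of CDKN2A (x axis, kb). Circles have reads, crosses have 0 counts in all libraries, and CDKN2A and CDKN2B, in red, lie among the 14 entries at 0 between KLHL9 and TUSC1.

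Levels were compared between members per kilobase of exon (GENCODE 29 lengths). In vehicle the order was CDKN1A (151 ± 5.20 CPM per kb), CDKN1B (33.4 ± 1.57), CDKN2C (15.8 ± 1.10) and CDKN2D (6.44 ± 0.269), and no neighbours in this order overlapped (mean ± SD, n = 3). In vehicle_Nutlin CDKN1A reached 3363 ± 334 CPM per kb, CDKN1B held 31.3 ± 3.28, and CDKN2C and CDKN2D came close to each other at 4.56 ± 0.804 and 3.79 ± 0.458. CDKN2C stayed above CDKN2D within each library, with a ratio per kb of 1.13 to 1.28 in vehicle_Nutlin and 1.03 to 1.26 in AG120_Nutlin, against 2.18 to 2.83 in the libraries without Nutlin. CIP/KIP transcripts outnumbered INK4 transcripts per kb by 8.31 ± 0.261 in vehicle and 11.7 ± 0.286 in AG120. With Nutlin the ratio was 410 ± 37.0 in vehicle cells and 487 ± 24.9 in AG-120 cells. CDKN1B alone went from 2.12 times CDKN2C in vehicle to 6.93 times in vehicle_Nutlin, and from 2.38 to 6.77 times in AG-120 cells.

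Over the 12 libraries the log2 levels of CDKN1A and CDKN2C ran opposite to each other (Pearson r -0.977), as did CDKN1A and CDKN2D (-0.792), while CDKN2C and CDKN2D ran together (0.871). CDKN1B followed CDKN1A little (-0.204). These 12 points share the Nutlin step. By the same measure, among 10967 tested genes that averaged 5 CPM or more, those most like CDKN1A were CROT (0.999), a peroxisomal carnitine transferase, and BTG2 (0.999), an antiproliferative p53 target. The closest to CDKN2C were BMP6 (0.994) and QTRTD1 (0.993), to CDKN2D NOL12 (0.942) and CRIP1 (0.941), and to CDKN1B GLOD4 (0.902) and SERF2 (0.899). BTG2 went from 25.8 to 463 CPM with Nutlin in vehicle cells, and BMP6 from 21.5 to 6.93 CPM.

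Most of the kinases and cyclins that the inhibitors bind fell at the transcript level with Nutlin. In vehicle cells 8 of 11 tested fell and 1 rose, where 27.1% of all genes were called lower and 26.8% higher. For AG-120 cells these shares of all genes were 28.8% and 27%. The list's median log2 value was -2.50 against -0.02 for all genes, and in AG-120 cells 9 fell and 1 rose (median -2.56 against 0.00). CCNA2, the S phase cyclin, went from 102 ± 5.34 to 1.28 ± 0.697 CPM in vehicle cells, a log2 fold change of -6.26 (adjusted p of 3.66e-10 in edgeR). CDK1, the mitotic kinase, changed by -5.73, its partners CCNB1 by -4.75 and CCNB2 by -5.52, and CDK2 by -2.50. Of the kinases that INK4 proteins bind, CDK6 fell by 0.80 in vehicle cells and by 1.07 in AG-120 cells (adjusted p of 0.0001036 and 7.163e-06 in edgeR). CDK4 was at -0.14 in vehicle cells, not called (adjusted p of 0.4438 in edgeR), and fell by 0.39 in AG-120 cells (adjusted p of 0.03689 in edgeR). Of the cyclin D genes, CCND3 rose by 0.51 in vehicle cells and CCND1 was at 0.18, not called (adjusted p of 0.4586 in edgeR).

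Of the RB pocket proteins and E2F factors, 7 of 13 fell and 3 rose in vehicle cells (median -0.55), and 7 fell and 4 rose in AG-120 cells (median -0.40). Over all genes 27.1% fell and 26.8% rose in vehicle cells (median -0.02). The same shares were 28.8% and 27% in AG-120 cells (median 0.00). E2F1 fell by 4.70 on the log2 scale and E2F2 fell by 7.56, to under 0.1 CPM. The pocket protein gene RBL1 (p107) fell by 2.94, whereas RBL2 (p130) rose by 1.06 and RB1 rose by 0.75. TFDP1, the dimer partner of E2F, fell by 1.54.

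Subunits of the ubiquitin ligases that degrade p21, p27 and p57 were lower in part: 5 of 12 fell and 2 rose in vehicle cells (median -0.34), and 6 fell and 2 rose in AG-120 cells (median -0.42). Among all genes 27.1% fell and 26.8% rose in vehicle cells (median -0.02), and 28.8% and 27% in AG-120 cells (median 0.00). SKP2, which recognizes p27, went from 49.9 ± 3.19 to 13.8 ± 0.921 CPM in vehicle cells, a log2 fold change of -1.85 (adjusted p of 2.83e-08 in edgeR). Its cofactor CKS1B changed by -1.72, DTL (CDT2), which recognizes PCNA-bound p21, by -5.70, and CDC20 by -5.92.

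Transcription regulators of CIP/KIP genes split evenly in vehicle cells, with 4 of 13 higher and 4 lower (median 0.02), and 5 higher and 4 lower in AG-120 cells (median 0.18). Of all genes 26.8% were higher and 27.1% lower in vehicle cells (median -0.02), so the vehicle split lies near the general one. In AG-120 cells 27% of all genes were higher and 28.8% lower (median 0.00). FOXO1, an activator of CDKN1B, rose from 16.5 ± 1.41 to 69.1 ± 9.88 CPM in vehicle cells (log2 fold change 2.07, adjusted p of 1.575e-08 in edgeR), while CDKN1B itself was not called. TP73 fell by 5.55 and KLF6 fell by 0.90. MYC, which represses CDKN1A, fell by 1.06 in vehicle cells and by 2.04 in AG-120 cells. Under Nutlin MYC was lower with AG-120 than with vehicle, by -1.25 on the log2 scale (adjusted p of 0.0008987 in edgeR), and the difference between its Nutlin responses had an adjusted p of 0.06457 in edgeR.

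Of 16 regulators of the INK4 locus, 6 fell and 5 rose in vehicle cells (median 0.04), and 5 fell and 8 rose in AG-120 cells (median 0.13). Shares of all genes were 27.1% lower and 26.8% higher in vehicle cells (median -0.02). They were 28.8% and 27% in AG-120 cells (median 0.00). EZH2 and SUZ12, of the Polycomb complex that silences CDKN2A in many cells, fell by 1.84 and 0.87 in vehicle cells. ETS1, an activator of CDKN2A, fell by 2.63, and ID1, an antagonist of that activation, rose by 1.54. CDKN2A and CDKN2B stayed at 0 reads in the same libraries.

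**Figure D5:**
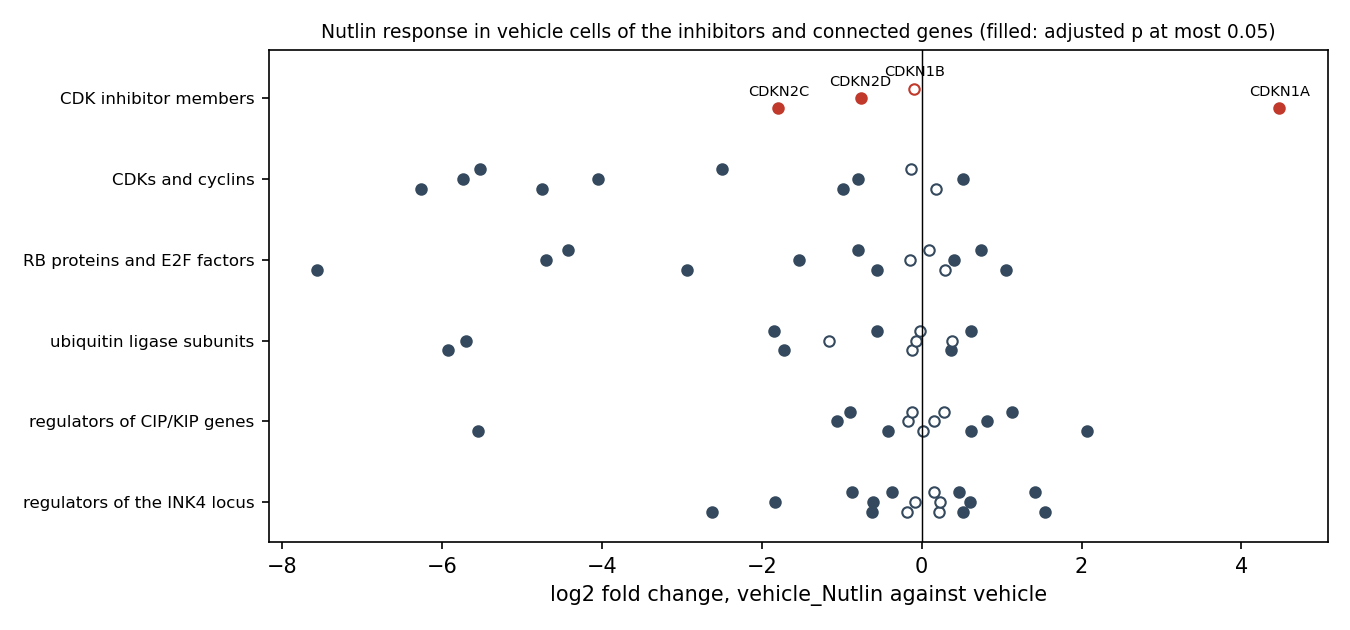
Log2 fold changes with Nutlin in vehicle cells (x axis) of the 4 tested CDK inhibitors (red, named) and of 5 lists of connected genes (rows), 1 point per gene, filled at an adjusted p of at most 0.05. CDKN1A at 4.47 lies above every gene of the lists, of which FOXO1 at 2.07 is the highest.

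Other measures moved with Nutlin beside these results. The mitochondrial share of counts was 1.02% to 1.74% without Nutlin and 1.71% to 4.42% with it. The 1.71% was vehicle_Nutlin replicate 3, and every other Nutlin library was at 3.20% or more. Replicate 3 also held the highest level of each tested member in the vehicle_Nutlin group. The sum of 6 fibroblast markers was 36.0 to 43.4 CPM without Nutlin and 2.41 to 5.29 CPM with it, carried by COL1A1 and PDGFRB, with DCN and LUM at 0 in all libraries. Their part in the member results was not tested. In bulk RNA, fewer cells that express a gene and less RNA per cell cannot be told apart.

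Genes within 100 kb of the members did not share a direction. CDKN1A had 7 such entries, of which 4 held reads, and SRSF3, a splicing factor, went from 311 to 105 CPM in vehicle cells (log2 fold change -1.56, adjusted p of 2.978e-08 in edgeR) as CDKN1A rose. Next to CDKN2C, FAF1 stood at 64.2 CPM in vehicle and 75.5 CPM in vehicle_Nutlin and was not called (adjusted p of 0.08967 in edgeR). Of 14 entries near CDKN2D, 12 held reads. Among them ATG4D, an autophagy protease, rose by 1.21 and PDE4A fell by 2.62 in vehicle cells. Near CDKN1B, CREBL2 was not called (0.25, adjusted p of 0.08813 in edgeR) and APOLD1 changed by -0.51 (adjusted p of 0.01533 in edgeR). Beside CDKN1C, itself not tested, SLC22A18AS went from 1.37 to 0.348 CPM in vehicle cells (-1.85, adjusted p of 0.02023 in edgeR). KCNQ1, NAP1L4, PHLDA2 and SLC22A18 were not called there.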

How the data were processed

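RNA was sequenced from 12 RBE libraries in 4 groups of 3, grouped by the labels. The authors deposited raw read counts per gene symbol with hg19 positions. The submitters' processing notes name Partek, STAR, HTSeq, DESeq2 and hg19. Their versions, roles and the strand setting are not given in the sources used here. Totals ran from 16840161 to 27499433 counts per library, and the binomial and count-ratio intervals and the limits from 0 counts cover counting error only. Intervals of log2 fold changes come from edgeR's spread between libraries.

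Counts were tested in R 4.3.3 with edgeR 4.0.16 (quasi-likelihood, 1 term per group, all 12 libraries). The filter was filterByExpr (15691 genes kept) and the scaling was TMM. Calls were made at 0.05 after Benjamini-Hochberg adjustment. The workflow was tested on simulated data in which 200 genes were changed. That is far fewer than were called for Nutlin here, so the simulation does not cover a shift this broad. DESeq2 1.42.0, other scalings and filters, a replicate block and left-out libraries were the alternatives. Ratios were tested by exact permutation.

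Named genes are the 7 members, MDM2, up to 4 genes per list with the smallest adjusted p in vehicle cells, the 2 genes most correlated with each member, and neighbours within 100 kb. CDK2, CDK4, CDK6, CCND1, CCND3, RB1 and RBL2 were added after their values were seen. The members, lists and the 3 libraries set apart were chosen with earlier results of these data known. PECAM1 was not analysed here. The result of 1 further marker is not reported here. Summed levels of the other 3 endothelial markers and of 5 leukocyte markers were at most 1.06 and 0.685 CPM. Deposited stop positions lie 1 base past the gene end, so 1 was subtracted. GENCODE 29 (GRCh38) gave exon lengths and overlaps only.

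Replicate numbers were not treated as pairs: over 18 same-number pairs the correlation of deviations ran from -0.224 to 0.116.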

Additional observations from a re-analysis of the deposited data

How the results depend on the processing

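Over 20 settings the Nutlin calls of CDKN1A and CDKN2C and that of CDKN2D in vehicle cells all held. Of 396 alternative member fold changes, 376 kept direction and side of the threshold, 5 became called, and 15 uncalled ones changed sign. With the 3 libraries set apart left out, 1 vehicle_Nutlin library remained and further member results were called. These were CDKN1A for AG-120 with and without Nutlin, CDKN1B for Nutlin in cells of either pretreatment, and CDKN2D for Nutlin in AG-120 cells. CDKN1B with Nutlin in vehicle cells had a log2 fold change of -0.26, against -0.09 in the full fit. The cause was not tested. Per exon length, the CDKN1A share of CIP/KIP was 81.9% in vehicle, 99.1% in vehicle_Nutlin, 85.0% in AG120 and 99.3% in AG120_Nutlin.

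Counts of called genes in the AG-120 comparisons depended on the setting. With Nutlin there were 371, against 850 by DESeq2, 1272 with no filter, 1374 with the 3 libraries left out, 15 in a fit of only the compared groups, and 61 to 1037 when each library was left out in turn. Without Nutlin there were 8, against 95 by DESeq2, 104 with no filter, 13 with a filter of 1 CPM, 908 with the 3 libraries left out, 29 in a fit of only the compared groups, and 1 to 241 with each library left out. For the difference between responses there were 57, against 203 by DESeq2, 283 with no filter, 637 with the 3 libraries left out, and 23 to 243 with each library left out. Without vehicle_Nutlin replicate 3 alone they were 683, 241 and 243.

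With the replicate number as a block these counts were 211, 4 and 32, and no member call changed. The numbers do not pair the samples: 1 of 18 same-number correlations was over 0.1, and 0 of 12 libraries were closest to their own number.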
